A study of Mus musculus with 30 samples.

Results

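Macrophages of Ticam2-/- mice (KO) that had received lipoteichoic acid (LTA) at 100 ng/mL for 2 h were compared with untreated KO macrophages, across all genes of the deposited count table. The members were every gene measured in the 6 libraries that the labels give to these conditions, 3 for KO LTA 2 h and 3 for KO untreated, of 30 libraries in the series. The table held 32361 gene IDs, and 15119 passed the filter on low counts and were tested. The study profiled wild-type (WT) and KO macrophages with LTA or lipopolysaccharide (LPS) after 2 h and 6 h.

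All cells were bone marrow-derived macrophages of C57BL/6J background, grown from whole marrow after lysis of red cells in medium with L929 cell supernatant, a source of the growth factor M-CSF, which every group therefore received. Beside KO LTA 2 h and KO untreated, values are given for KO cells with LPS at 10 ng/mL for 2 h, for KO cells with LTA at 100 ng/mL for 6 h, for WT cells with LTA at 100 ng/mL for 2 h and 6 h, and for untreated WT cells, with 3 libraries each. Per the labels the cells came from 3 KO and 3 WT animals, taken as the replicates of each condition. Not given in the sources used here are which animal each library came from, whether conditions share animals, the age of the animals and the stretch of Ticam2 that the allele removes.

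LTA is a cell wall polymer of Gram-positive bacteria that is sensed by TLR2, which pairs with TLR1 or TLR6. TLR2 signals through the adaptors TIRAP and MyD88 to the IRAK kinases and on to NF-kB and the MAP kinases, and these switch on cytokine, chemokine and feedback inhibitor genes within hours. TRAM, the protein encoded by Ticam2, is best known for carrying TLR4 signals from endosomes to TRIF and so to interferon beta.

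Levels are TMM-scaled CPM, counts divided by the effective library size, and the 3 values of a group are given in the order of replicates 1 to 3. Ticam2 itself had 3.40, 3.24 and 1.67 CPM in KO LTA 2 h libraries, against 0.807, 0.713 and 0.355 CPM in KO untreated libraries. It had 9.10, 11.3 and 9.82 CPM in WT LTA 2 h libraries and 9.28, 11.1 and 9.97 CPM in WT untreated libraries, so the KO libraries of both conditions lay below all of these WT libraries. KO LTA 2 h was called higher than KO untreated by 2.19 ± 0.49 on the log2 scale, but with all libraries thinned to the same number of counts the difference was 1.20 and was not called (adjusted p = 0.20). The KO LTA 2 h values rest on 8, 7 and 3 counts, and whether they come from the part that the allele removes was not tested.

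The KO LTA 2 h libraries held 1658298 to 2191199 counts, against 10791175 to 12262160 in KO untreated libraries, 5.84 times as many on average. The same split held for the series, with 1334784 to 2658329 counts in the 12 libraries of 2 h and 10641070 to 13521660 in the others, and no untreated library belongs to the 2 h set. LTA treatment and library set therefore cannot be told apart in this comparison. Macrophage identity genes summed to 36197 to 37399 CPM of the total in KO LTA 2 h and to 32305 to 32595 CPM in KO untreated libraries, and none of the 20 was at 0. Erythroid and megakaryocyte markers summed to 370.2 to 395 CPM with 8 of 12 at 0 in KO LTA 2 h, against 5915 to 6335 CPM with 0 of 12 at 0 in KO untreated libraries. Fibroblast and stromal markers summed to 209 to 368 CPM in KO LTA 2 h and 33.6 to 37.8 CPM in KO untreated libraries, with 3 and 2 of 14 at 0. The part of these differences in the results below was not tested.

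Of the tested genes, 56% were called, of which 3973 (26.3%) were higher and 4490 (29.7%) were lower in KO LTA 2 h than in KO untreated macrophages at an adjusted p under 0.05 (edgeR quasi-likelihood test, Benjamini-Hochberg over all tested genes). The median log2 fold change was -0.07. In bulk samples, a change in the number of cells of a type and a change in RNA per cell cannot be told apart. Because of the difference in depth, the account keeps to large, well-counted calls, which changed at least 2-fold and reached 10 CPM in the higher group, a level worth 16.6 to 21.9 counts in the KO LTA 2 h libraries. Such calls took 10.1% of the tested genes, with 728 rises (4.82%) and 796 falls (5.26%). At least 8-fold changes numbered 131 upward and 39 downward, and at least 32-fold changes 28 upward and 10 downward. The libraries of both conditions did not overlap in any of the 728 and 796 genes, while 28.8% of all tested genes were higher and 35.4% lower without overlap.

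**Figure D1:**
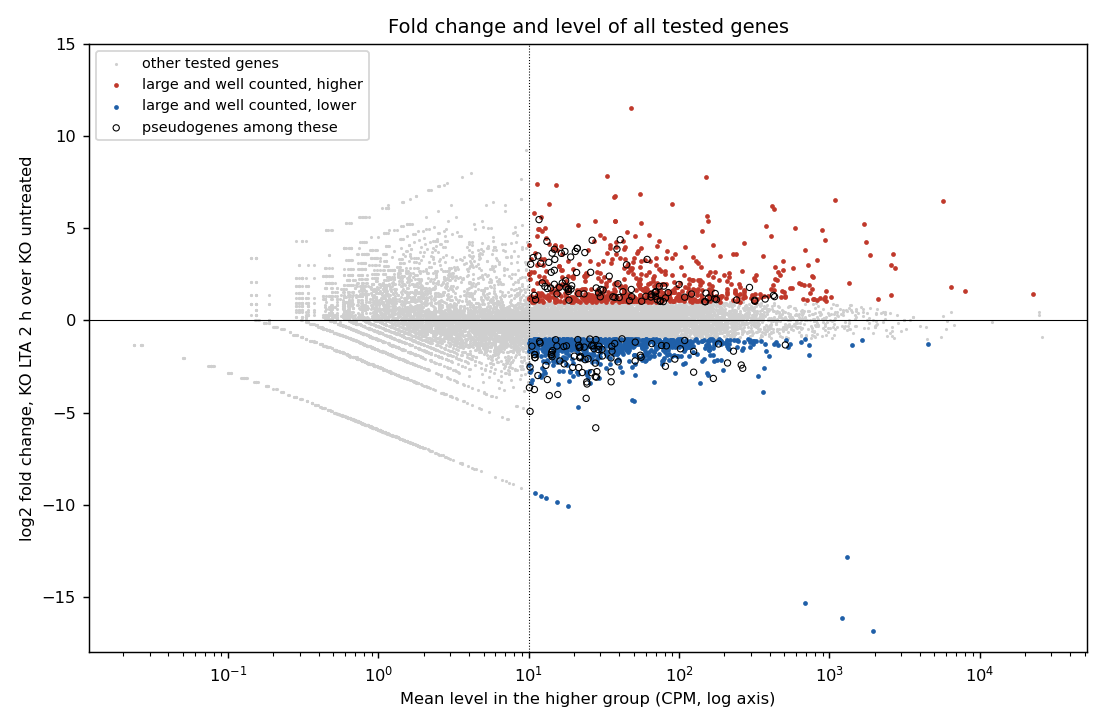
Each point is 1 of 15119 tested genes, placed by its mean level in the higher group (CPM, log axis) and its log2 fold change, KO LTA 2 h over KO untreated. Red and blue points are the 728 large, well-counted rises and 796 falls, open circles mark the 180 pseudogenes among them, and the dotted line stands at 10 CPM; the lowest blue points are haemoglobin genes.

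The receptor for LTA rose itself. Of 25 tested genes of TLR2 sensing and MyD88 signalling, 17 were called higher (68%, against 26.3% of all tested genes) and 3 lower (12%, against 29.7%). There were 8 large rises and 1 large fall, and the median log2 fold change was 0.71. Tlr2 (chr3:83836272-83841767, minus strand, GRCm38) had 438, 448 and 414 CPM in KO LTA 2 h, against 60.8, 59.2 and 55.3 CPM in KO untreated libraries. Its groups were far apart, with a log2 fold change of 2.89 ± 0.06 (SE, adjusted p = 1.2e-43). Cd14, a co-receptor that hands lipid ligands to TLR2 and TLR4, had 2646, 2487 and 2565 CPM with LTA and 944, 1025 and 974 CPM untreated. All 3 treated libraries lay above the untreated ones, by 1.39 ± 0.04 on the log2 scale.

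Tlr1, a partner of TLR2, rose by 1.97 ± 0.09 and the other partner, Tlr6, by 1.14 ± 0.22 on the log2 scale, though Tlr6 had only 18, 33 and 14 counts in the treated libraries. Irak2, a kinase that sustains signalling downstream of MyD88, rose by 2.18 ± 0.07 (log2). Irak3, which encodes IRAK-M, an inhibitor of the same step, rose by 2.02 ± 0.10 (log2). Myd88 rose by 0.97 ± 0.06 (log2), just under the 2-fold limit. Tlr4, the LPS receptor, was the large fall of this list, with 29.3, 29.1 and 34.0 CPM in KO LTA 2 h libraries and 77.6, 71.8 and 79.5 CPM in KO untreated libraries.

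NF-kB subunits and feedback inhibitors moved almost as a block. Of 28 tested genes 25 were called higher (89.3%, against 26.3% of all tested genes) and 2 lower (7.14%, against 29.7%). Of these calls 21 were large rises and none was a large fall, and the list's median was 2.15. Nfkbia, which encodes the inhibitor IkB-alpha that holds NF-kB in the cytoplasm, had 2792, 2755 and 2673 CPM in KO LTA 2 h, against 394, 399 and 374 CPM in KO untreated libraries. The treated libraries stood 7.04-fold above the untreated ones, with a log2 fold change of 2.82 ± 0.04 (adjusted p = 1.0e-49). Socs3, a brake on cytokine receptor signalling, had 444, 434 and 405 CPM with LTA and 7.02, 6.41 and 6.04 CPM untreated. Every treated library was far above every untreated one, a 66.0-fold rise (6.04 ± 0.07 on the log2 scale).

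Nfkbiz, a nuclear IkB protein that helps to switch on secondary response genes, had 575, 611 and 591 CPM in KO LTA 2 h and 19, 18.7 and 16.4 CPM in KO untreated libraries, a rise of 5.04 ± 0.06. Tnfaip3, the ubiquitin-editing enzyme A20, rose by 3.20 ± 0.07, and Tnfaip2 by 3.55 ± 0.04 (log2). The subunit genes Nfkb1 and Rel rose less, by 1.41 ± 0.05 and 2.19 ± 0.07 (log2).

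Chemokine genes rose nearly without exception. Of 19 tested, 18 were called higher (94.7%, against 26.3% of all tested genes) and none lower (against 29.7%). There were 10 large rises, and the median was 1.99. Cxcl2, which draws neutrophils, had 5752, 5492 and 5844 CPM in KO LTA 2 h, against 67.7, 64.3 and 62.5 CPM in KO untreated libraries. The treated libraries stood 87.9-fold above the untreated ones (log2 6.46 ± 0.05, adjusted p = 7.5e-61). Its neighbours on chromosome 5 encode related neutrophil attractants. Cxcl3 had 1063, 1082 and 1110 CPM with LTA and 12.6, 12.4 and 10.5 CPM untreated, a 92.0-fold rise, and Cxcl1 had 420.1, 409 and 413 CPM with LTA and 7.02, 4.99 and 4.97 CPM untreated, a 73.4-fold rise. No treated library came near an untreated one in either gene. The CC chemokines Ccl3 and Ccl4 rose by 3.61 ± 0.05 and 3.01 ± 0.05 on the log2 scale, and Cxcl10, a CXCR3 ligand that interferon also induces, by 1.96 ± 0.05.

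The promoters below were chosen because they held a match to a motif searched, at most 5 in order of p. That each of them holds a match therefore follows from the choice and is no result. They are the 250 bases before the start site in the RefSeq promoter table (GRCm38.p6), read 5′ to 3′ on the gene's strand, with matches to the NF-kB consensus in capitals. They lie at chr5:90903649-90903898 (plus strand) for Cxcl2, chr5:90785851-90786100 (plus) for Cxcl3, chr5:90890995-90891244 (plus) for Cxcl1, chr12:55492648-55492897 (minus) for Nfkbia and chr17:35821463-35821712 (plus) for Ier3, an early response gene.
Cxcl2: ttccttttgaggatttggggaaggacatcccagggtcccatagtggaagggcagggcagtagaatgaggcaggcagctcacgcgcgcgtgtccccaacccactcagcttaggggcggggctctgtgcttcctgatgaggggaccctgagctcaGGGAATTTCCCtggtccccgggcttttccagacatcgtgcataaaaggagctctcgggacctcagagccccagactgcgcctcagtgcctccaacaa
Cxcl3: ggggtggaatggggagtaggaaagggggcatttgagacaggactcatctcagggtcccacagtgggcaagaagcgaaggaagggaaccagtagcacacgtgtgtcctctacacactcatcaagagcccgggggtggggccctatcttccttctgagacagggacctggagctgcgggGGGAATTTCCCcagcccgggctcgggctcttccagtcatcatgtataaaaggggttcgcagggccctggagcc
Cxcl1: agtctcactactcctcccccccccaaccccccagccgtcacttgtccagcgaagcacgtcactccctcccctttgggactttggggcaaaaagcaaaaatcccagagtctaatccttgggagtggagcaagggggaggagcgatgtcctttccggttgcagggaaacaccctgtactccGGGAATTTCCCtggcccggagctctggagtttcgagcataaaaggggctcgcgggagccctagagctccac
Nfkbia: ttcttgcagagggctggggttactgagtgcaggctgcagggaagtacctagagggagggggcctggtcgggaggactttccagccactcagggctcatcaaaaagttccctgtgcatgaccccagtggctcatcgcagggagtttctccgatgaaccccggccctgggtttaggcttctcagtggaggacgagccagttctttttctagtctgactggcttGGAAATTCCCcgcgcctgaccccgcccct
Ier3: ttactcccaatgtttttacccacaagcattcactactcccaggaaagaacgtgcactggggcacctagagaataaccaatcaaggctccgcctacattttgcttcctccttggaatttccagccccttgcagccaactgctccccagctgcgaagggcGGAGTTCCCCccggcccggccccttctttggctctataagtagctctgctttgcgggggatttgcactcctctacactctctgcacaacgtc

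The 3 chemokine promoters each held a pair of overlapping consensus matches, which begin 97 and 96 bases before the start of Cxcl2, 73 and 72 bases before that of Cxcl3, and 71 and 70 bases before that of Cxcl1. The match began 29 bases before the start of Nfkbia and 92 bases before that of Ier3. Both strands were searched in the promoters of the 12 genes named by the text's rule from the NF-kB, chemokine and immediate early lists. Of these, 11 had an entry, and Socs3, Tnfaip2, Ccl3, Junb, Jun and Klf2 held no match to the NF-kB consensus, to TGANTCA (AP-1), to TGACGTCA (CRE) or to the interferon-stimulated response element (ISRE). Among 27025 promoters of the same length 3.75% held the NF-kB consensus, 6.87% the AP-1 letters, 1.62% the CRE letters and 3.04% the ISRE. Of the 28 NF-kB list genes 24 had an entry, and 9 of these (37.5%) held the NF-kB consensus, 2 the AP-1 letters, 1 the CRE letters and 1 the ISRE. A match describes the letters in this window and no site of binding.

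Cytokine and growth factor genes rose in a more mixed way. Of 29 tested, 18 were called higher (62.1%, against 26.3% of all tested genes) and 1 lower (3.45%, against 29.7%). Of these calls 13 were large rises and none was a large fall, and the median was 1.60. Tnf (chr17:35199381-35202007, minus strand), which encodes an early cytokine of stimulated macrophages, had 1725, 1690 and 1707 CPM in KO LTA 2 h, against 47.5, 45.4 and 44.4 CPM in KO untreated libraries. The treated libraries lay close together and stood 37.3-fold higher (log2 5.22 ± 0.05, adjusted p = 3.0e-59). Il1b, the precursor of interleukin-1 beta, had 963, 893 and 949.6 CPM with LTA and 47.8, 46.2 and 43.3 CPM untreated, 20.4-fold higher.

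Csf1, which encodes the M-CSF that the medium also supplied as protein, had 56.1, 55.5 and 54.6 CPM in KO LTA 2 h and 3.55, 3.33 and 4.12 CPM in KO untreated libraries. Il6, an inducer of the acute phase, had 44.2, 51.8 and 45.7 CPM with LTA and 6.61, 6.81 and 5.97 CPM untreated, a rise of 2.87 ± 0.11. Both genes separated the groups without overlap. Il10, the anti-inflammatory cytokine, stayed under 10 CPM in every library, with 10, 8 and 13 counts in the treated ones, and was called higher by 1.60 ± 0.32 (log2).

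**Figure D2:**
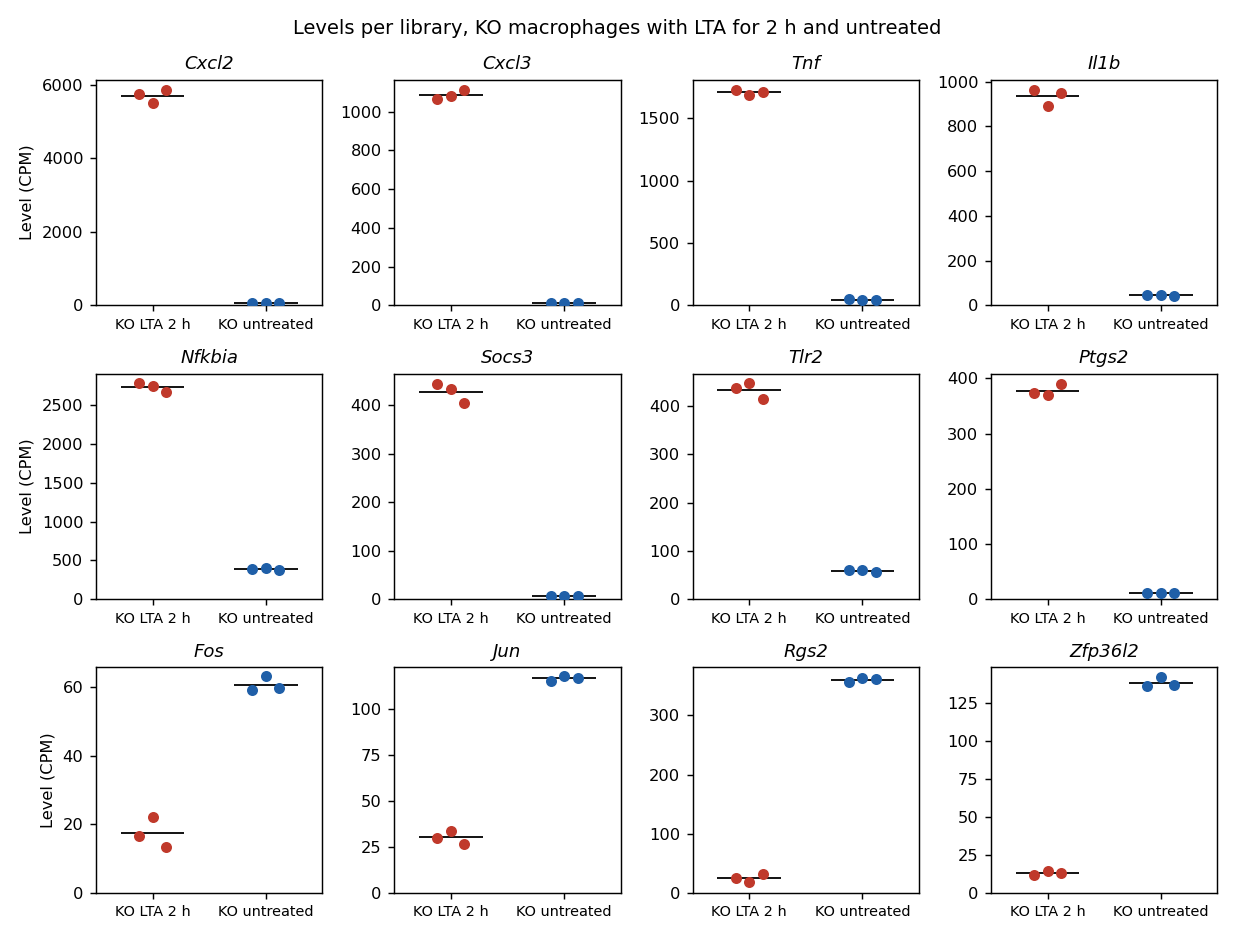
Points are single libraries and bars their mean, in TMM-scaled CPM on axes that start at 0, with KO LTA 2 h left of KO untreated (n = 3 each). In the upper 8 panels all treated libraries lie above all untreated ones, by 7.04-fold to 92.0-fold, and in Fos, Jun, Rgs2 and Zfp36l2 all treated libraries lie below.

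Genes of the later inflammatory and antimicrobial programme were already up at 2 h. Of 34 tested, 32 were called higher (94.1%, against 26.3% of all tested genes) and 2 lower (5.88%, against 29.7%). Of these calls 24 were large rises and none was a large fall, and the median was 2.67. Ptgs2, the inducible cyclooxygenase of prostaglandin synthesis, had 374, 370.1 and 389.8 CPM in KO LTA 2 h, against 11.5, 10.4 and 10.5 CPM in KO untreated libraries. Acod1, which makes itaconate, had 884, 904 and 909 CPM with LTA and 31.9, 28.2 and 28.3 CPM untreated. These were 35.0-fold and 30.5-fold rises with no overlap. Clec4e, the receptor Mincle for mycobacterial glycolipid, rose by 4.28 ± 0.05 on the log2 scale, and Nlrp3, an inflammasome sensor, by 3.48 ± 0.07. Slc7a11, the cystine importer, rose by 5.69 ± 0.10, Mmp14, a membrane metalloproteinase, by 5.42 ± 0.09, and Pim1, a survival kinase, by 2.85 ± 0.05 (log2). Nos2, the inducible nitric oxide synthase, had 28.1, 27.8 and 34.0 CPM with LTA and 0.887, 1.27 and 1.35 CPM untreated, so it was far above its untreated level while still at modest counts of 60 to 66 per treated library.

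Genes for co-stimulation and adhesion followed the same direction. Of 17 tested, 12 were called higher (70.6%, against 26.3% of all tested genes) and none lower (against 29.7%). There were 9 large rises, and the median was 2.29. Icam1, a ligand of leukocyte integrins, had 693, 697 and 689.8 CPM in KO LTA 2 h and 51.8, 50.7 and 47.2 CPM in KO untreated libraries. Cd69, an activation marker, had 152, 148 and 127 CPM with LTA and 4.36, 4.91 and 5.54 CPM untreated. Cd40, which receives help from T cells, rose by 3.38 ± 0.09, the fibronectin receptor subunit Itga5 6.49-fold, and Tnfrsf1b, the second TNF receptor, by 2.42 ± 0.05 (log2). None of these groups overlapped.

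**Figure D3:**
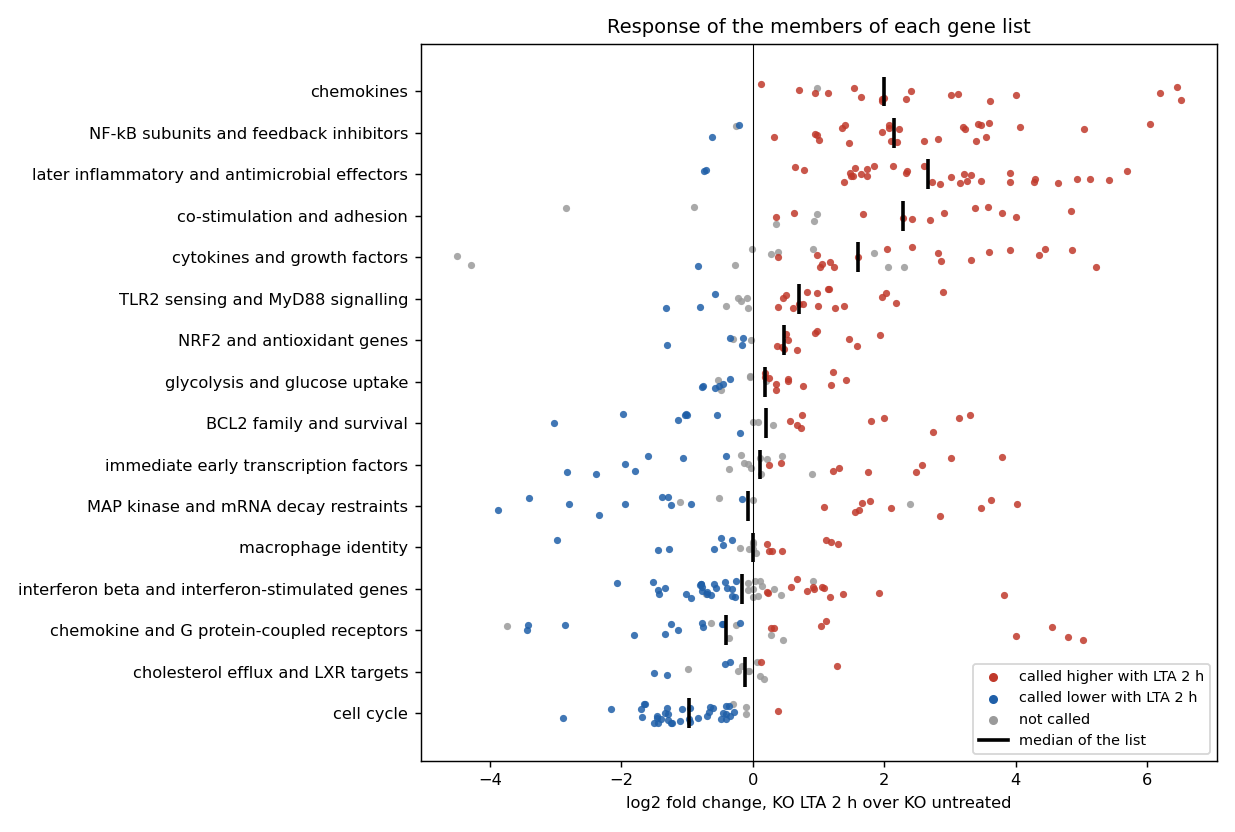
Each point is a gene of the list named at the left, placed by its log2 fold change, KO LTA 2 h over KO untreated; red and blue points were called higher and lower, grey points were not called, and the black bar is the list's median. Medians lie at 2.67 for later effectors and 2.15 for the NF-kB list, at 0.01 for macrophage identity and at -0.97 for cell cycle genes.

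Immediate early transcription factors were called at shares near those of all tested genes. Of 26 tested, 9 were higher (34.6%, against 26.3% of all tested genes) and 7 lower (26.9%, against 29.7%). There were 5 large rises and 5 large falls, and the median of 0.11 lay close to that of all genes. Junb had 583, 572 and 544 CPM in KO LTA 2 h, against 166, 172 and 165 CPM in KO untreated libraries, and Ier3, an early survival gene, had 96.1, 85.6 and 85.9 CPM with LTA and 15.6, 16.7 and 15.8 CPM untreated. Both rose, by 1.76 ± 0.05 and 2.48 ± 0.09 (log2). Maff, a small MAF protein, rose by 3.80 ± 0.24 (log2). The AP-1 partners Fos and Jun fell. Fos had 16.6, 22.2 and 13.4 CPM in KO LTA 2 h and 59.2, 63.3 and 59.8 CPM in KO untreated libraries, and Jun had 29.8, 33.8 and 26.8 CPM with LTA and 115, 118 and 117 CPM untreated. All treated libraries lay below all untreated ones, with log2 fold changes of -1.79 ± 0.11 for Fos and -1.95 ± 0.08 for Jun. Klf2, a factor that quietens macrophages, fell by 2.39 ± 0.11 (log2). Egr1 had 5, 9 and 5 counts in the treated libraries and was not called (log2 fold change -0.18 ± 0.30, adjusted p = 0.67).

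Restraints on the MAP kinases and on mRNA stability split, with 10 of 24 called higher and 10 lower. Each share was 41.7%, against 26.3% higher and 29.7% lower of all tested genes. Of these calls 8 and 7 were large, and the median was -0.08. Dusp2, a nuclear MAP kinase phosphatase, had 73.1, 72.6 and 68.6 CPM in KO LTA 2 h and 5.24, 3.41 and 4.55 CPM in KO untreated libraries. Gadd45b, which modulates stress kinases, had 234, 195 and 253 CPM with LTA and 17.8, 18.8 and 18.5 CPM untreated. Zfp36 (tristetraprolin), which marks cytokine mRNAs for decay, rose by 1.09 ± 0.05 (log2). Rgs2 (chr1:143999338-144004161, minus strand), a brake on G protein signals, had 24.7, 19 and 31.2 CPM in KO LTA 2 h, against 356, 364 and 361 CPM in KO untreated libraries. It was 14.6-fold lower, with no overlap. Zfp36l2, a relative of Zfp36, had 11.9, 14.3 and 12.8 CPM with LTA and 136, 142 and 137 CPM untreated. Dusp6, an ERK phosphatase, fell by 2.79 ± 0.17, and Dusp1, which acts on p38 and JNK, by 0.94 ± 0.10 (log2), under the 2-fold limit.

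Interferon genes did not move as a block. Ifnb1 had 1 count in 1 of the 3 treated libraries and was not called (adjusted p = 0.64), and a change was not detectable at this depth. Of 48 tested interferon genes, 13 were called higher (27.1%, against 26.3% of all tested genes) and 23 lower (47.9%, against 29.7%). There were 6 large calls each way, and the median was -0.16. Slfn2, a Schlafen gene of immune cells, had 706, 732 and 742 CPM in KO LTA 2 h, against 191, 189 and 196 CPM in KO untreated libraries. Irf1, a factor that NF-kB can induce directly, rose by 1.09 ± 0.07, and Gbp5, a guanylate-binding protein with 24 to 42 counts per treated library, by 3.82 ± 0.42 (log2). Ifit3, an antiviral effector, had 23.8, 28.2 and 21.2 CPM with LTA and 70.7, 70.0 and 70.3 CPM untreated, and Ifit2 and Trim25 fell by 2.07 ± 0.19 and 1.42 ± 0.07 (log2). Ifit1 had 61.2, 62.9 and 61.3 CPM with LTA and 53.2, 58.0 and 56.5 CPM untreated, and its log2 fold change of 0.14 ± 0.07 was not called (adjusted p = 0.12). Ifit1 was called higher in a fit of only these 6 libraries (0.20, adjusted p = 0.024) and in one of only protein-coding genes (0.21, adjusted p = 0.019).

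Of 26 receptors that sense chemokines and metabolites, 8 were called higher (30.8%, against 26.3% of all tested genes) and 12 lower (46.2%, against 29.7%). Of these calls 3 and 7 were large, and the median was -0.40. Gpr84, a receptor for medium-chain fatty acids, had 425, 390.0 and 403 CPM in KO LTA 2 h and 16.9, 18.6 and 16.1 CPM in KO untreated libraries. Hcar2, the niacin receptor, rose by 4.80 ± 0.15 and Adora2b, an adenosine receptor, by 4.00 ± 0.13 (log2). Cxcr4, the receptor that holds cells in marrow, had 16.2, 26.4 and 21.7 CPM with LTA and 156, 149 and 156 CPM untreated. Gpr183, an oxysterol receptor, was down to 4, 2 and 3 counts in the treated libraries and Cnr2, the second cannabinoid receptor, to 0, 3 and 3 counts. Their levels of 0.925 to 1.70 CPM and 0 to 1.67 CPM with LTA compare with 14.8 to 17.0 CPM and 9.66 to 11.4 CPM in KO untreated libraries.

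Cell cycle genes fell. Of 39 tested, 35 were called lower (89.7%, against 29.7% of all tested genes) and 1 higher (2.56%, against 26.3%). There were 19 large falls, and the median was -0.97. Cdt1, which licenses replication origins, had 33.6, 27.8 and 24.0 CPM in KO LTA 2 h and 80.1, 78.7 and 77.6 CPM in KO untreated libraries. Cdk1, the mitotic kinase, had 45.9, 47.2 and 53.0 CPM with LTA and 112, 115 and 114 CPM untreated. The helicase gene Mcm2 fell by 1.29 ± 0.08 and Rrm2, a subunit of ribonucleotide reductase, by 1.11 ± 0.06 (log2). The gene called higher was Mki67, a proliferation marker, at 62.1, 52.3 and 63.6 CPM with LTA and 45.7, 43.1 and 47.5 CPM untreated; it was chosen for naming after its value was seen.

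Survival genes of the BCL2 family split 9 higher (45%, against 26.3% of all tested genes) to 8 lower (40%, against 29.7%) of 20, with 5 large calls each way. Bcl2a1d, Bcl2a1a and Bcl2a1b, which encode the NF-kB target A1, rose by 2.74 ± 0.05, 3.14 ± 0.08 and 1.99 ± 0.05 (log2), but these copies are nearly identical and the share of each is uncertain. Fas, a death receptor, had 59.1, 57.8 and 60.2 CPM in KO LTA 2 h and 5.48, 6.73 and 5.68 CPM in KO untreated libraries. Bbc3, which encodes the pro-death protein PUMA, had 14, 15.3 and 14.5 CPM with LTA and 56.5, 59.0 and 55.8 CPM untreated. Of 17 tested NRF2 and antioxidant genes 11 were called higher (64.7%) and 4 lower (23.5%), with a median of 0.47. Nfe2l2, which encodes NRF2, rose by 1.46 ± 0.04, Txnrd1, thioredoxin reductase, by 1.58 ± 0.05, and Srxn1, sulfiredoxin, by 1.94 ± 0.08 (log2). The large fall of that list was Ftl1, the ferritin light chain, with 1927, 1753 and 1821 CPM in KO LTA 2 h and 4511, 4687 and 4335 CPM in KO untreated libraries. Of 22 glycolysis and glucose uptake genes 11 were called higher (50%) and 6 lower (27.3%, near the share of all genes). With total-count scaling 9 were higher and 9 lower. The 3 large rises were the transporters Slc2a1, Slc2a6 and Slc16a3 (2.68-fold, 2.28-fold and 2.34-fold).

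Macrophage identity genes kept a median of 0.01, with 7 of 20 called higher and 7 lower. Each share was 35%, against 26.3% higher and 29.7% lower of all tested genes. Adgre1 (F4/80) had 705, 684 and 676 CPM in KO LTA 2 h and 697, 694 and 664 CPM in KO untreated libraries, so the groups overlapped. Irf8, a lineage factor, fell by 1.28 ± 0.07, while Spi1 (PU.1), Cebpb and the scavenger receptor Msr1 rose by 1.12 ± 0.05, 1.19 ± 0.04 and 1.29 ± 0.05 (log2).

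Among the 12 largest rises outside these lists, Adamts4, an aggrecan-degrading protease, had 11.9, 12.5 and 16.7 CPM in KO LTA 2 h and 0.0807, 0.317 and 0.0710 CPM in KO untreated libraries. Mycl, a MYC family factor, had 25.9, 26.4 and 30.7 CPM with LTA and 0.484, 0.634 and 0.781 CPM untreated. Zfp811, a zinc finger gene, had 12.3, 9.25 and 11.2 CPM with LTA and 0.0807, 0.0792 and 0.355 CPM untreated. These rest on 20 to 61 counts per treated library. Among the 12 largest falls, Hhex, a homeobox factor, had 5.53, 9.72 and 4.46 CPM with LTA and 71.1, 63.9 and 67.9 CPM untreated, and Gab3, Lpcat4 and Fam78a fell by 3.22 ± 0.40, 3.13 ± 0.23 and 3.11 ± 0.24 (log2).

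Some of the largest changes came with like values in WT cells at 2 h, while KO LTA 6 h libraries, which belong to the deeper set, had levels near those of untreated cells. Gpc3 and Serpinf2, known from liver, had 5.58 to 20.8 CPM and 11.7 to 21.3 CPM in KO LTA 2 h libraries and at most 0.0807 CPM in any KO untreated library, and their mean levels in KO LTA 6 h libraries were 0.0598 and 0.118 CPM. In WT LTA 2 h libraries they had 2.45 to 16.1 CPM and 11.8 to 24.5 CPM. Alb, serum albumin, had 35.7, 65.2 and 42.9 CPM in KO LTA 2 h and 0 in all KO untreated libraries, at least 198-fold higher against a floor of 3 counts in a library, and was at 0 at 6 h. Ttr, another hepatocyte marker, went the other way. It had no count in KO LTA 2 h or WT LTA 2 h libraries and a mean of 18.1 CPM in KO untreated libraries, at least 10.8-fold lower in KO LTA 2 h. Fn1, fibronectin, had 127, 205 and 124 CPM with LTA and 0.403, 0.713 and 0.923 CPM untreated, with a mean of 1.01 CPM at 6 h. Sumo2, a ubiquitin-like modifier, had 2.55, 2.31 and 2.23 CPM in KO LTA 2 h and 48.4, 50.2 and 51.1 CPM in KO untreated libraries, with a mean of 43.2 CPM in KO LTA 6 h. Ptgds and Snap25 had no count in KO LTA 2 h libraries, at least 7.82-fold and 6.58-fold lower than untreated, and their means at 6 h were 18.4 and 12.8 CPM. Haemoglobin Hbb-bs had no count with LTA and 2058, 1931 and 1845 CPM untreated, with a mean of 2270 CPM at 6 h.

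Pseudogenes made up 93 of the 728 large rises and 87 of the 796 large falls, of 1239 tested. In WT LTA 2 h against WT untreated, 92 of those 93 were called higher and all 87 lower. Reads of a processed pseudogene and of its parent gene can be confused, so these, and parents with many copies such as Sumo2, Rps6, Ftl1 and H3f3c, are uncertain. Protein-coding genes made up 559 of the rises and 680 of the falls.

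The WT comparisons share no library with the KO ones, and they were added after the first results were seen. WT LTA 2 h libraries belong to the shallow set and WT untreated libraries to the deeper one. Calls shared with WT at 2 h therefore cannot tell LTA from library set. In WT LTA 2 h against WT untreated, 43% of tested genes were called, and 643 of the 728 large KO rises were called higher (88.3%, against 19% of all tested genes) and 659 of the 796 large falls lower (82.8%, against 23.9%). By the same limits WT cells had 346 large rises and 408 large falls. Of the KO rises 43.7% were also large in WT, and of the WT rises 91.9% were also large in KO. For the falls these shares were 36.1% of the KO list and 70.3% of the WT list.

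At 6 h, where both WT groups belong to the deeper library set and 71.3% of tested genes were called, 624 of the 728 large KO rises were called higher with LTA in WT cells (85.7%, against 35.4% of all tested genes) and 10 lower. Of the 796 large falls 602 were lower (75.6%, against 35.9%) and 123 higher. Among protein-coding genes the shares were 93.2% of 559 rises and 84.6% of 680 falls, and among pseudogenes 51 of 93 rises and 10 of 87 falls moved the same way. Scaling by total counts in place of TMM moved the median of all genes in this WT comparison by -0.59, and 65.5% of the 728 rises were then called higher, 17.2% lower, and 91.2% of the 796 falls lower. The shares for protein-coding genes were then 79.2% and 92.4%.

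KO macrophages at 6 h of LTA share the untreated libraries with those at 2 h, so their values are only set beside them. Total-count scaling moved the median of all genes by -0.18 there, and with TMM 52.2% of genes were called there, 25.7% higher and 26.5% lower. Tnf averaged 1766 CPM and Cxcl2 5722 CPM at 6 h, and Il1b averaged 1454 CPM and Il6 159.9 CPM. Cxcr4 averaged 114 CPM and Jun 90.6 CPM at 6 h. The list medians at 6 h were 2.15 for NF-kB genes, 3.56 for later effectors, 2.78 for cytokines and -0.90 for cell cycle genes.

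**Figure D4:**
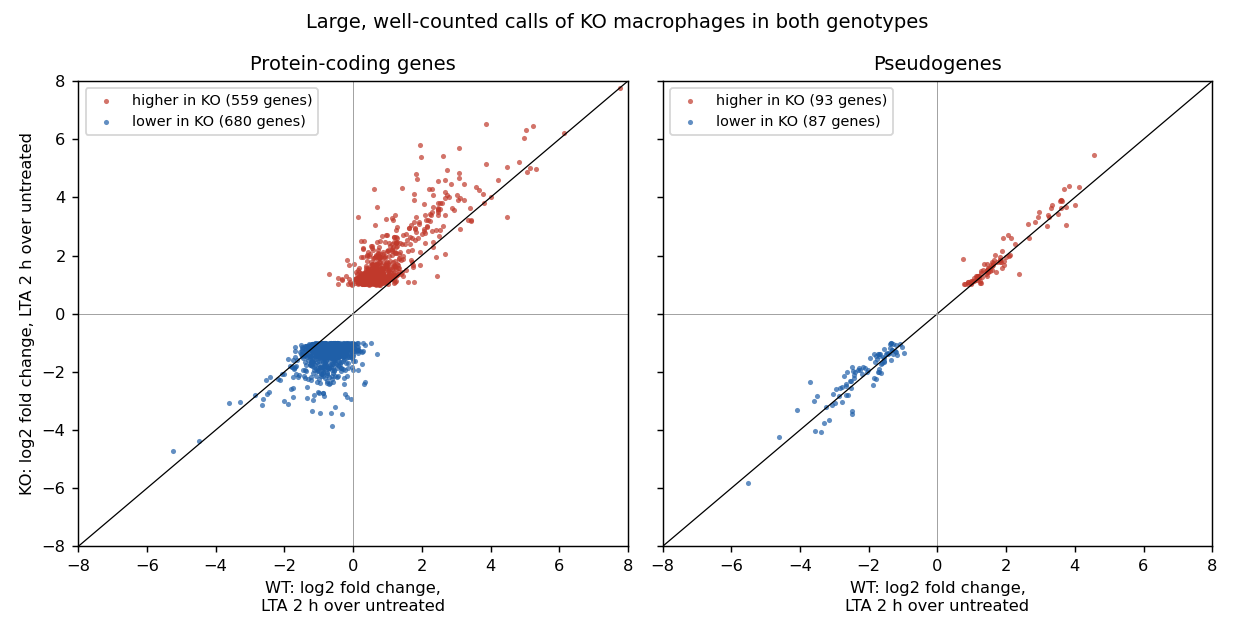
Each point is a gene with a large, well-counted call in KO macrophages (red higher, blue lower), with the WT log2 fold change of LTA 2 h over untreated on the x axis and the KO one on the y axis; the line marks equal changes, and 12 genes beyond 8 on either axis are not drawn. Many protein-coding points lie farther from 0 in KO than in WT, while pseudogenes lie along the line, with 92 of 93 rises and 87 of 87 falls called in WT as well. The genes were chosen by the size of their KO change with no limit on the WT change, so larger changes in KO follow in part from the choice.

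Whether the LTA response at 2 h differed between genotypes was tested as the difference between the KO change and the WT change. All 2 h libraries belong to one set and all untreated libraries to the other, so what the set changes equally in both genotypes drops out. The change was higher in KO for 1364 genes (9.02%) and lower for 957 (6.33%), 15.4% of tested genes together, and total-count scaling turned this majority, to 1003 higher and 1324 lower. The large calls were chosen on the same KO libraries, so their counts here are a description: 426 of 728 rises were higher in KO and 360 of 796 falls lower. Only 2 of the 93 pseudogene rises and 1 of the 87 pseudogene falls were called either way.

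Marco (chr1:120474538-120505024, minus strand), a scavenger receptor for bacteria, had 50.6, 41.2 and 38.5 CPM in KO LTA 2 h against 4.27, 4.51 and 4.33 CPM in KO untreated libraries, and 6.67, 9.55 and 8.34 CPM in WT LTA 2 h against 7.35, 7.05 and 7.98 CPM in WT untreated libraries. It rose in KO cells while its WT libraries overlapped, and the difference of the changes was 3.18 ± 0.23 on the log2 scale (adjusted p = 2.2e-16). Fpr1, the formyl peptide receptor, had 44.2, 44.0 and 39.6 CPM in KO LTA 2 h against 2.1, 1.82 and 2.56 CPM in KO untreated, and 13.3, 16.1 and 10.8 CPM in WT LTA 2 h against 8.92, 8.58 and 8.39 CPM in WT untreated libraries. KO libraries were the higher ones with LTA and the lower ones untreated, and the difference of the changes was 3.67 ± 0.20. Rgs2 had 199, 184 and 171 CPM in WT LTA 2 h against 290.2, 285 and 280.0 CPM in WT untreated libraries, a smaller fall than in KO cells, and the log2 difference of the changes was -3.24 ± 0.11. Cxcr4 had 129.8, 103 and 108 CPM in WT LTA 2 h against 131, 129 and 125 CPM in WT untreated libraries, which overlapped, and its change was lower in KO by a log2 difference of -2.68 ± 0.13.

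By lists, the change was higher in KO for 20 of 28 NF-kB genes and lower for 1 (median difference 0.88), higher for 25 and lower for 1 of 34 later effectors (1.20), and higher for 12 and lower for none of 17 NRF2 genes (0.50). For cell cycle genes it was higher for none and lower for 24 of 39 (-0.52). The change was also higher for 11 and lower for 1 of 19 chemokines (0.82), and higher for 8 and lower for none of 17 co-stimulation genes (0.70). For TLR2 and MyD88 genes it was higher for 9 and lower for 1 of 25 (0.36). Among lists that leaned less or the other way were restraints on MAP kinases and mRNA stability, with 3 higher and 8 lower of 24 (-0.24). Chemokine and G protein-coupled receptors had 7 and 8 of 26 (-0.11) and immediate early factors 2 and 6 of 26 (-0.01). LXR targets had 1 and 4 of 14 (-0.11) and interferon genes 10 and 4 of 48 (0.11). Cytokine and growth factor genes had 9 and 3 of 29 (0.13). Total-count scaling kept the sign of these medians and gave 10 higher and 7 lower interferon genes. It turned the sign for glycolysis (0.08 to -0.01), BCL2 family (0.01 to -0.08) and macrophage identity genes (0.07 to -0.02). The same held for ribosomal protein (0.05 to -0.04) and mitochondrially encoded genes (0.06 to -0.03). The median over all genes was 0.04, and -0.04 with total counts. Of all tested genes 9.02% were higher and 6.33% lower. Within the lists single genes differed. Cxcl3 had a log2 difference of 2.64 ± 0.10 and Tnf of 0.40 ± 0.06, while Cxcl1 (0.05 ± 0.13) and Tnfaip3 (-0.24 ± 0.09, adjusted p = 0.10) were not called.

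Tnfsf9, the ligand of 4-1BB, had 45.1, 50.9 and 41.8 CPM in KO LTA 2 h against 22.7, 24.3 and 23.7 CPM in KO untreated, and 276, 260.1 and 302 CPM in WT LTA 2 h against 35, 36 and 35.1 CPM in WT untreated libraries. It rose in both, and its change was lower in KO by a log2 difference of -2.02 ± 0.11. Of the immediate early genes Csrnp1, Egr1 and Egr2 had differences of -1.65 ± 0.17, -1.49 ± 0.36 and -1.13 ± 0.28 (log2), Egr1 on 5 to 9 counts per KO LTA 2 h library; Csrnp1 was chosen for naming after its value was seen.

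Set directly beside WT LTA 2 h, within 1 library set, KO LTA 2 h macrophages differed in 13% of tested genes, with 1184 higher (7.83%) and 788 lower (5.21%), and total-count scaling gave 836 higher and 1047 lower. Nos2 had 28.1, 27.8 and 34.0 CPM in KO and 9.70, 5.37 and 6.38 CPM in WT, with a log2 difference of 2.06 ± 0.21. Marco, Hcar2, Pim2, Itgb8 and Zfp811 were also higher, by 2.17 to 3.53 on the log2 scale. Arhgap25, a RAC regulator, had 7.23, 5.55 and 4.46 CPM in KO and 30.9, 37.0 and 35.3 CPM in WT. Gpr183, Rgs2, Tnfsf9, Zfp36l2 and Gpr146 were the other large differences downward, at -3.18, -2.90, -2.60, -2.49 and -2.48 (log2). NRF2 genes were higher in KO for 15 of 17 and lower for none, and interferon genes were higher for 3 and lower for 18 of 48. This direct comparison also holds any difference between the untreated cells: for the difference of the LTA changes the interferon genes were 10 higher and 4 lower.

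LTA at 100 ng/mL and LPS at 10 ng/mL, whose doses differ, were compared in KO macrophages at 2 h, within 1 library set. The test called 1.4% of genes, and KO LTA 2 h was higher than KO LPS 2 h for 39 genes (0.258%) and lower for 172 (1.14%). The 39 became 23 without KO LTA 2 h replicate 1, 25 without KO LPS 2 h replicate 3 and 62 with total-count scaling. A block on replicate numbers gave 32 higher and 151 lower genes. Il12b, the p40 chain of interleukins 12 and 23, had 10.6, 11.1 and 16.2 CPM with LTA and 55.2, 56.8 and 45.3 CPM with LPS. Il1a, interleukin-1 alpha, had 38.7, 34.7 and 39.0 CPM with LTA and 108, 96.9 and 105 CPM with LPS, and Il1b had 963, 893 and 949.6 CPM with LTA and 1814, 1871 and 1855 CPM with LPS. All LTA libraries lay below all LPS libraries for these cytokines, with log2 differences of -2.09 ± 0.24, -1.45 ± 0.08 and -0.98 ± 0.04. Il6 differed by -0.91 ± 0.09, while the Tnf difference of -0.08 ± 0.04 (log2) was not called (adjusted p = 0.50). Shisa3, Ccl22, Cish and Il4i1 were the other large differences downward, at -1.43, -1.39, -1.34 and -1.28 (log2).

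Of the NF-kB list 14 of 28 genes were lower with LTA than with LPS and none higher, at a median of -0.28, and 8 of 29 cytokines, 7 of 19 chemokines, 11 of 34 later effectors and 8 of 17 co-stimulation genes were lower with none higher. Over all tested genes 1.14% were lower and 0.258% higher. Slco4a1, an organic anion carrier, had 149, 155 and 152 CPM with LTA and 72.2, 78.3 and 75.5 CPM with LPS, and was higher with LTA by 1.00 ± 0.08. Cxcr4 was higher with LTA by 1.01 ± 0.19; without KO LTA 2 h replicate 2 the difference was 0.82 (adjusted p = 0.071). Dock5, Sema4b, Fos and Slc5a3, higher by 1.29, 0.89, 0.88 and 0.83 (log2), each lost their call when at least 1 library was left out. Slc5a3 also lost its call with the replicate block (adjusted p = 0.064) and Sema4b with thinned counts (adjusted p = 0.097). Dock5 also lost it in a fit of only the KO LTA 2 h and KO LPS 2 h libraries (adjusted p = 0.059).

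**Figure D5:**
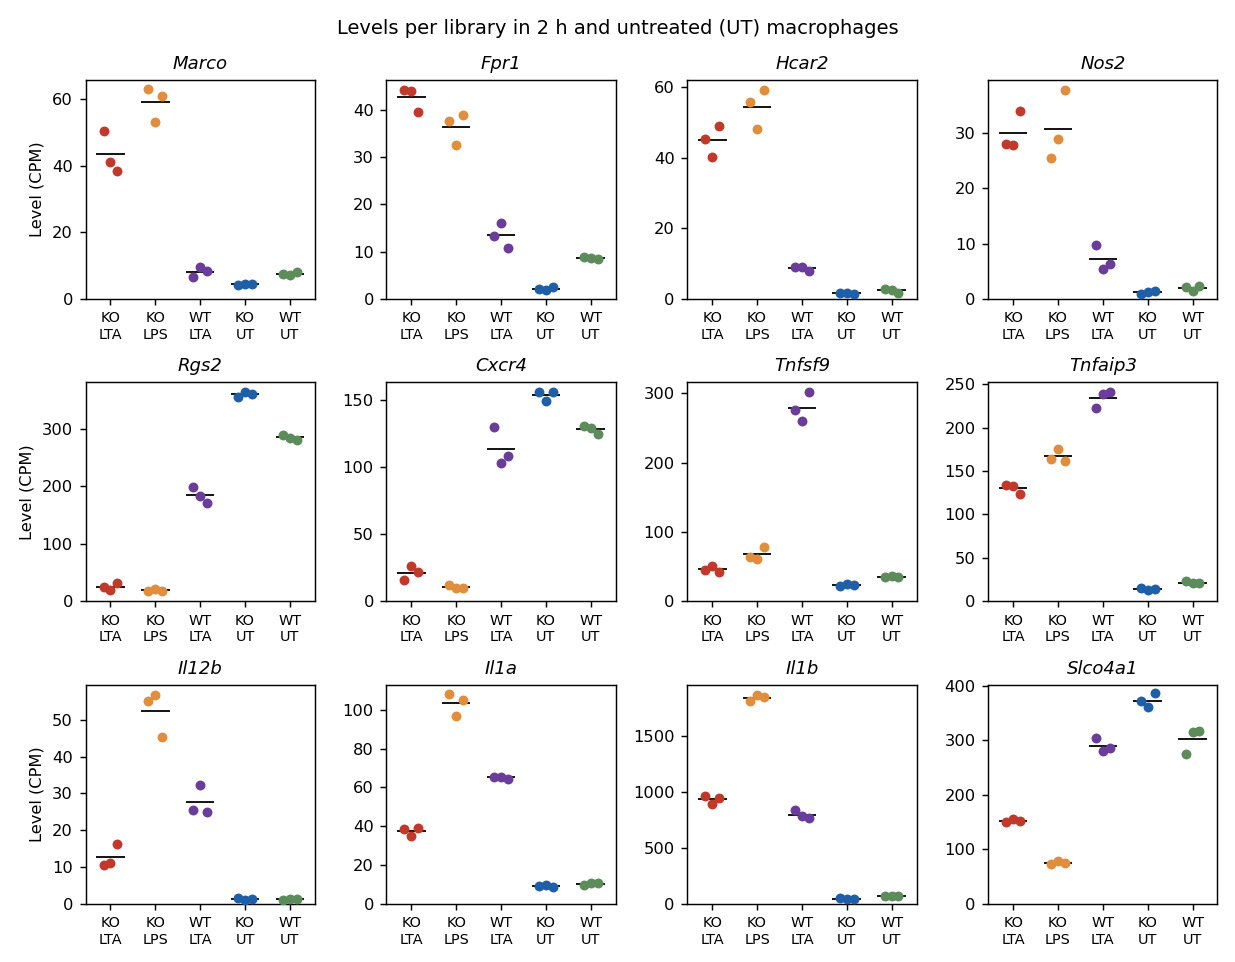
Points are single libraries and bars their mean, in TMM-scaled CPM on axes that start at 0, for KO LTA 2 h, KO LPS 2 h, WT LTA 2 h, KO untreated (UT) and WT UT (n = 3 each). Marco, Fpr1, Hcar2 and Nos2 stand higher in KO LTA 2 h than in WT LTA 2 h, Rgs2, Cxcr4 and Tnfsf9 lower, and Il12b, Il1a and Il1b lie lower with LTA than with LPS in KO cells.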

How the data were processed

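RNA of 30 macrophage libraries was measured. The authors deposited 1 table of expected counts per gene, made with fastp 0.24.0, STAR 2.7.11, SAMtools 1.22.1 and featureCounts of Subread 2.1.1 on GRCm38 (mm10), per the submitters' processing notes; 25.2% of the values above 0 were not whole. Counts were rounded, filtered with filterByExpr (minimum count 10, minimum total 15) and TMM-scaled. All 30 libraries were fitted with 1 coefficient per group by edgeR 4.0.16 (quasi-likelihood, R 4.3.3) with 20 residual degrees of freedom. Benjamini-Hochberg adjustment ran over 15119 genes at 0.05. Symbols came from GENCODE M21, which named 26304 of 32361 IDs. The ± values are standard errors of the edgeR fit, which hold the spread between libraries; floors cover counting error only. Named genes were a preset group, up to 4 large calls with the smallest p per list, the 12 largest rises and falls without overlap, and in the other comparisons the 6 largest calls each way with at least 10 CPM in the higher group, leaving out provisional names, markers of other cells and mitochondrially encoded genes. Adgre1, Bbc3, Cd40, Csrnp1, Dusp6, Egr2, Gbp5, Hbb-bs, Ifit2, Irak3, Irf8, Maff, Mki67, Myd88, Nfkb1, Nlrp3, Rel, Tlr4 and Tlr6 were named after their values were seen. Some genes that the rule names are not reported here. Members, lists and rules were chosen with earlier results of these data known. Same-numbered KO LTA 2 h and KO untreated libraries did not deviate together (correlations -0.016 to 0.005 over 6590 genes), so the main fit used no block. Same-numbered KO LTA 2 h and KO LPS 2 h libraries had correlations of 0.031 to 0.063, against -0.059 to 0.003 for other pairs. A block on replicate numbers is given as an alternative. Alternatives were DESeq2 1.42.0, other scalings, filters, thinned counts and left-out libraries. The scripts were checked on simulated counts.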

Additional observations from a re-analysis of the deposited data

Results flagged for a closer look

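These results stood out because the LTA response at 2 h differed between KO and WT macrophages by a test of the difference itself. The response was higher in KO for 1364 genes and lower for 957. The 6 largest differences upward among calls that reached 10 CPM in the higher group were Zfp811 at 3.87, Fpr1 at 3.67, Mycl at 3.40, Marco at 3.18, Hcar2 at 2.98 and Pim2 at 2.97, all on the log2 scale. Hcar2 had 45.5, 40.3 and 49.1 CPM in KO LTA 2 h against 1.77, 1.66 and 1.35 CPM in KO untreated, and 9.10, 8.95 and 7.85 CPM in WT LTA 2 h against 2.85, 2.61 and 1.66 CPM in WT untreated libraries. Pim2, a survival kinase, had 35.3, 31.5 and 33.5 CPM in KO LTA 2 h and 4.85, 4.18 and 3.93 CPM in WT LTA 2 h libraries.

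The 6 largest differences downward were Rgs2 at -3.24, Gpr183 at -3.12, Il16 at -2.89, Cnr2 at -2.78, P2ry1 at -2.74 and Gab3 at -2.69. Of these, Rgs2 had 41 to 58 counts in each KO LTA 2 h library, while Gpr183 and Cnr2 were down to the few counts given above. Il16 and P2ry1 lay far below 10 CPM in these libraries, a level worth 16.6 to 21.9 counts there. Il16, which encodes a chemoattractant for CD4+ cells, had 1.28, 2.31 and 1.12 CPM in KO LTA 2 h against 11.5, 12.8 and 12.6 CPM in KO untreated, and 9.70, 9.55 and 8.34 CPM in WT LTA 2 h against 10.5, 9.5 and 8.48 CPM in WT untreated libraries. P2ry1, an ADP receptor, had 2.13, 2.78 and 0.558 CPM in KO LTA 2 h and 10.9, 7.76 and 10.8 CPM in WT LTA 2 h libraries.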

How the results depend on the processing

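No untreated library belongs to the shallow 2 h set, so no fit within 1 library set could test LTA 2 h against untreated. With all libraries thinned to 1334575 counts, 2783 genes were higher and 2767 lower in KO LTA 2 h than in KO untreated, and the response was higher in KO than in WT for 767 and lower for 620. DESeq2 gave 4137 higher and 4010 lower, so the majority turned. A minimum of 50 CPM left 368 large rises and 281 large falls, and a test against 2-fold itself left 544 and 429. With total counts, 62 genes were higher and 136 lower with LTA than with LPS. A fit of only the 6 libraries gave 906 higher and 955 lower for KO LTA 2 h against WT LTA 2 h. Leaving out 1 library at a time gave 3465 to 3887 higher and 3880 to 4427 lower genes for LTA against untreated, 721 to 753 large rises, 786 to 825 large falls, 1180 to 1344 and 791 to 944 for the difference between genotypes, 23 to 34 and 115 to 164 for LTA against LPS, and 920 to 1038 and 625 to 668 for KO against WT with LTA. The sign turned for 2 uncalled genes: Egr1 ranged from -0.50 to 0.05 over left-out libraries, the highest without KO LTA 2 h replicate 1 (adjusted p = 0.94), and Ifnb1 from -2.52 to 1.62, the lowest without KO LTA 2 h replicate 2 (adjusted p = 0.54). Of the values for named genes under all alternatives, 1968 kept direction and call, 20 lost and 2 gained it. The replicate block gave 3952 higher and 4456 lower genes for LTA against untreated, where same-numbered KO libraries did not deviate together. It gave 1323 and 919 for the difference between genotypes, 32 and 151 against LPS, and 994 and 669 against WT. The cause of each shift was not tested.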

Other observations

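The gene lists of this paragraph had median log2 fold changes of -0.16 to 0.14 in KO LTA 2 h against KO untreated macrophages. Over all tested genes 26.3% were called higher and 29.7% lower. Of 23 cholesterol biosynthesis genes 8 were called higher and 3 lower, with Hsd17b7, a sterol reductase, as the large rise (15.3, 13 and 25.1 CPM with LTA against 6.29, 6.26 and 8.31 CPM untreated). Of 14 cholesterol efflux and LXR targets 2 were higher and 4 lower. Abcg1, a cholesterol exporter, had 61.2, 61.5 and 60.2 CPM with LTA against 144, 150.2 and 158 CPM untreated, and Nr1h3, which encodes LXR-alpha, rose by 1.28 ± 0.14. Lysosomal hydrolases had 10 of 25 called each way, MHC class II genes 3 of 7 higher and 2 lower, ribosomal protein genes 16 of 34 higher and 12 lower, and mitochondrially encoded genes 5 of 13 higher and 3 lower. Rps6 was the large fall of the ribosomal protein list, at -1.61 ± 0.06, and fell in WT cells as well, at -1.75 ± 0.07 (log2).

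Among marker lists of other cells, 2 of 9 erythroid and megakaryocyte genes were called higher and 7 lower, 4 of 7 hepatocyte genes higher and 1 lower, 6 of 8 fibroblast and stromal genes higher and 1 lower, 2 of 7 neutrophil genes higher and 1 lower, 2 of 3 B cell and plasma cell genes lower, and 1 gene higher in each of the T and NK cell (of 2), dendritic cell (of 3) and mast cell and basophil (of 3) lists. Beside these stand 26.3% higher and 29.7% lower of all tested genes, and several lists hold only 2 or 3 tested genes. The higher shares of the neutrophil (28.6%) and the erythroid and megakaryocyte list (22.2%) lay near that of all genes. Hepatocyte markers summed to 83.1 to 126 CPM in KO LTA 2 h and 58.0 to 61.0 CPM in KO untreated libraries.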
